A study of Mus musculus with 6 samples.

Results

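The genes examined here are 48 interferon-stimulated genes of the mouse, taken by gene symbol from a list drawn up with earlier results of these data known. The list comprised 22 antiviral effectors, 8 genes grouped as sensors of foreign nucleic acid and 8 regulators of the interferon response. It also held 6 interferon-inducible GTPases and 4 genes of antigen presentation. The sensor group includes Trim25, a ubiquitin ligase, and Adar, an RNA-editing enzyme, which are not sensors themselves. All 48 were among the 54752 genes of the deposited count table. Of these, 46 had at least 10 counts in total over the libraries and were tested, as were 17936 genes in all. Oas2 and Oas3, which make the second messenger that switches on RNase L, had only 3 and 4 counts in total and were not tested.

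The libraries were made from rRNA-depleted RNA of NIH/3T3 cells, an immortalized line of mouse embryonic fibroblasts, after 72 h in 1 of 3 treatments with 2 replicates each. The vehicle group received PBS, the second group TGF-β1 at 1 ng/ml together with DMSO, and the third TGF-β1 at 1 ng/ml together with BI6727 at 5 μM. BI6727 is an inhibitor of the mitotic kinase PLK1, and TGF-β1 is the cytokine that turns fibroblasts into contractile myofibroblasts. The question behind the design was how the inhibitor alters the response of these fibroblasts to TGF-β1. Because vehicle was PBS, the effects of TGF-β1 and of DMSO cannot be told apart in the comparison with vehicle, and whether the BI6727 group also held DMSO is not stated in the labels. All cells were of 1 line and the labels do not say whether the replicates were separate cultures, so the p-values below measure only the spread between these libraries, which may be technical.

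Interferon-stimulated genes are switched on when interferons bind their receptors. Type I interferons act through IFNAR1 and IFNAR2 and the kinases JAK1 and TYK2, and the signal reaches a complex that holds STAT2 and IRF9 and binds the interferon-stimulated response element in promoters. Interferon gamma acts through its own receptor, and its signal reaches promoters at the gamma-activated site. Fibroblasts are a classical source of interferon beta, made when cytoplasmic sensors of RNA or DNA signal through MAVS or STING to TBK1 and IRF3, and some interferon-stimulated genes are also switched on directly by IRF3 or IRF1 without any interferon.

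RefSeq promoters (GRCm38.p6, the assembly of mm10), which run from 250 bases before to 50 bases after the annotated start, were found for 36 of the 48 genes. The response element was read as GAAANNGAAA and the gamma-activated site as TTCNNNGAA, a motif that reads the same on both strands. The response element occurred on either strand in 18 of the 36 promoters (50%), against 3.993% of the promoters of 27025 genes. By role, it occurred in 5 of 5 GTPases, 8 of 17 effectors, 3 of 5 sensors, 1 of 5 regulators and 1 of 4 genes of antigen presentation. In 15 of the 18 promoters it lay wholly upstream of the start, and 8 held at least 2 matches. The gamma-activated site occurred in 13 of the 36 promoters, or 36.111%, against 9.554% of all promoters, and its matches overlapped those of the response element in Bst2 and Ifitm3. A match is a description of these letters and not of a bound site.

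The upstream sequences of 6 genes that held the element are printed as examples. Isg15 and Ifit1 rose from vehicle to the DMSO group, Rsad2 was highest in both DMSO libraries, Gbp3 and Gbp7 were lowest in both BI6727 libraries, and B2m was the most abundant of the genes. These traits overlap and are no separate classes. Isg15 and Ifit1 were also highest in both DMSO libraries, and Ifit1 and B2m also lowest in both BI6727 libraries, Ifit1 only narrowly. All 6 had a lower fitted level with BI6727 than with DMSO. Each sequence runs 5′ to 3′ on the strand of its gene and leaves out bases that Gencode M21 places in an exon. The capitals mark matches to the response element on either strand. Isg15 lies at chr4:156200819-156201068 on the minus strand, Ifit1 at chr19:34640744-34640870 on the plus strand, Rsad2 at chr12:26456453-26456702 on the minus strand, Gbp3 at chr3:142559794-142560025, Gbp7 at chr3:142530086-142530335 and B2m at chr2:122147437-122147685, the last 3 on the plus strand.
Isg15: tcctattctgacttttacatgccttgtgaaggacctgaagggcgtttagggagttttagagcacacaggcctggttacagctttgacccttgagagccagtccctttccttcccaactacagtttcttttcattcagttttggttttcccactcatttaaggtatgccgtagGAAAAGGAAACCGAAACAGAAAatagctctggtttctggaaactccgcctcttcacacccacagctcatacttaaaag
Ifit1: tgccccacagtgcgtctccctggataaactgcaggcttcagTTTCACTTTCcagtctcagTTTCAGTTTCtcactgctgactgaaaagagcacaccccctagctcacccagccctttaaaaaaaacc
Rsad2: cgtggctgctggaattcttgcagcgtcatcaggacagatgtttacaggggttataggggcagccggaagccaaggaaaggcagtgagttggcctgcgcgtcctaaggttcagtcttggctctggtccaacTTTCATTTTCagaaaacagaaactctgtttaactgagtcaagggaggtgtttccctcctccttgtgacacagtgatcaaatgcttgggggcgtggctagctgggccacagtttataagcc
Gbp3: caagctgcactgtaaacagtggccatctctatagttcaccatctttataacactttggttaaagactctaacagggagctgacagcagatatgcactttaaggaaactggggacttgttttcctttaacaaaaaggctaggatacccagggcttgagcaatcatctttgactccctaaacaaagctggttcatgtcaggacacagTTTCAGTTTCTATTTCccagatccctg
Gbp7: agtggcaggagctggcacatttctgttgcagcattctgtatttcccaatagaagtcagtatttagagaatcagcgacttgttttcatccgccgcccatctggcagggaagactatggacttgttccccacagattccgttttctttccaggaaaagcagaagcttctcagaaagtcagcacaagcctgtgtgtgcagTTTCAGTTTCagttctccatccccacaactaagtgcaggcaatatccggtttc
B2m: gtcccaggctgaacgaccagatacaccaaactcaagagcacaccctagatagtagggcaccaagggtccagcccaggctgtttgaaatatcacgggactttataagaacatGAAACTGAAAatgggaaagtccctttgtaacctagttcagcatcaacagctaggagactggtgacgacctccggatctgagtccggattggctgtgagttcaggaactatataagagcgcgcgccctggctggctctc

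The elements sat at different distances from the start. In Isg15, 3 overlapping matches covered bases -78 to -57, and in Gbp3 a pair of overlapping matches covered bases -45 to -30. In Ifit1, matches began at -104 and at -85, and B2m had a single match from -139 to -130. The 3 promoters without a match wholly upstream, of Ifitm3, Eif2ak2 and Ifih1, held theirs within the first 50 transcribed bases.

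**Figure D1:**
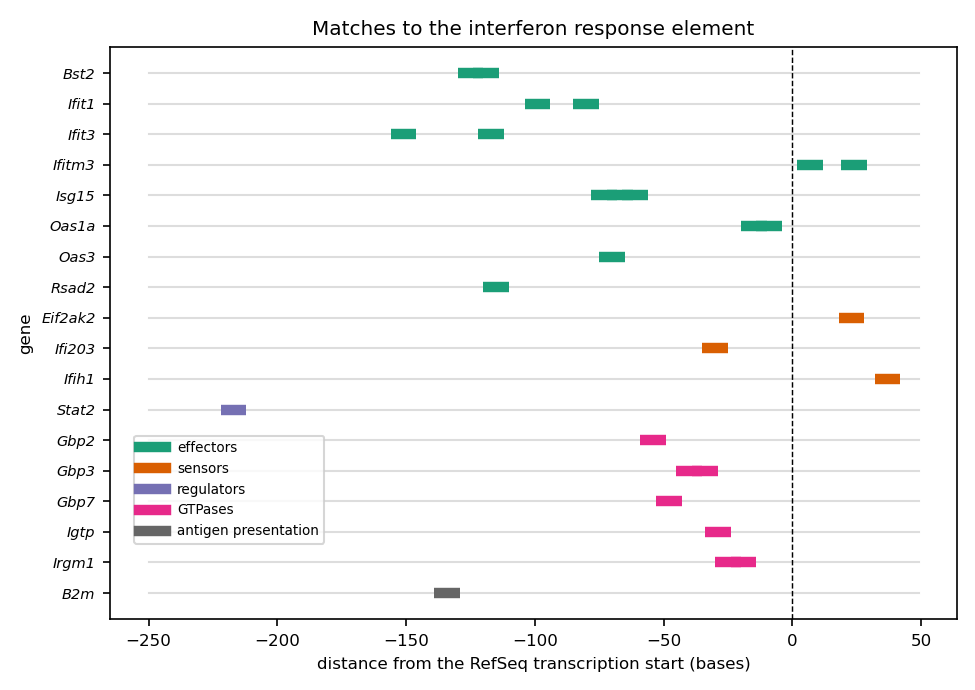
Matches to the interferon response element in the RefSeq promoters of the 18 genes that held one, as distance in bases from the annotated start (dashed line); each coloured bar is 1 match, coloured by the role of the gene, and each grey line is the 300-base window. The matches of the 5 GTPases lie between -59 and -15, whereas those of the effectors spread from -156 in Ifit3 to 28 bases past the start in Ifitm3.

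Library totals ranged from 18362378 to 24452153 counts. Acta2, the gene of α-smooth muscle actin and a marker of the myofibroblast, had 89.3 and 98.5 normalized CPM (counts scaled to library size by TMM) with vehicle, 470 and 464 with DMSO and 344 and 322 with BI6727, so all 4 libraries labelled with TGF-β1 lay above both vehicle libraries. Plk1, whose product is the target of BI6727, had 95.7 and 104 normalized CPM with vehicle, 70.6 and 69.2 with DMSO and 59.5 and 62.5 with BI6727. All 12 fibroblast markers exceeded 1 CPM in every library, and their summed level ranged from 8456 to 11370 CPM. The 8 macrophage markers summed to 23.2 to 27.0 CPM in the vehicle and DMSO libraries and to 21.4 to 24.0 CPM with BI6727, with Adgre1 and Tyrobp at 0 throughout, and the 6 epithelial markers summed to at most 0.604 CPM. The 6 endothelial markers summed to 5.04 and 7.42 CPM with vehicle, 18.0 and 11.8 with DMSO and 10.2 and 10.6 with BI6727, with Kdr and Emcn at 0, and their part in the results was not tested.

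The DMSO libraries differed from each other more than the replicates of the other groups. Over 9708 genes with a mean of at least 10 CPM, replicates differed on the log2 scale with an SD of 0.381 in the DMSO group, 0.167 in the vehicle group and 0.155 in the BI6727 group. The same SD over the 21 interferon-stimulated genes of that level was 0.387, 0.208 and 0.138. DMSO replicate 2 read 0.254 higher on the log2 scale in short genes (708 bases of exon) and 0.21 lower in long genes (8775 bases) than the average library, and the part of this in the results is given by the values with the length trend removed. Genes with 2 counts also outnumbered genes with 1 count in every library, and 58.5% to 59.9% of the values from 1 to 20 were even, so a count was not always an independent molecule and intervals or floors from low counts cover counting error only.

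The genes spanned a wide range of levels. Averaged over all 6 libraries, treated ones included, and divided by exonic length, B2m, the light chain of MHC class I, stood at 847 normalized CPM per kilobase, followed by Ifitm3 (196), Ifi27 (31.3), Isg15 (25.2), Bst2 (17.7) and Ifit2 (11.5). The median over the 46 genes was 1.79 normalized CPM per kilobase. A mean of at least 10 normalized CPM was reached by 21 genes, and 7 stayed under 1 normalized CPM in every library, namely Oas1a, Mx1, Mx2, Ifi44, Ifih1, Iigp1 and Psmb8. The classical antiviral GTPases Mx1 and Mx2 had at most 4 and 6 counts in a library, and Psmb8, a subunit of the immunoproteasome, had 0 or 4.

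The interferons themselves were hardly measured. Ifnb1, which encodes interferon beta, had 4 counts in vehicle replicate 1, 2 in DMSO replicate 2 and 0 in the other 4 libraries. The other 9 interferon genes on the list (Ifna1, Ifna2, Ifna4, Ifna5, Ifnk, Ifne, Ifng, Ifnl2 and Ifnl3) were at 0 in all 6 libraries, which at 3 counts per library is a limit of this depth and not an absence.

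With TGF-β1 and DMSO, the interferon-stimulated genes did not move as a block. Isg15, Oasl1 and Ifit1 rose past a fold change of 2 at an adjusted p-value below 0.01 in edgeR's quasi-likelihood test (3 of 46, against 2.3% of all genes tested). Ifit2, Ifitm3, Ifi204 and Gbp2 fell past the same threshold (4 of 46, against 2.72%). At an adjusted p-value below 0.05 with no fold minimum, 6 rose, where 7.64% of all genes did, and 6 fell, where 8.41% did. Each of these counts was a larger share than over all genes, but rested on at most 6 genes. Both DMSO libraries lay above both vehicle libraries in 14 genes (27.3% of all genes) and below them in 17 (29.1%), and the median log2 fold change was -0.09, against -0.001 over all genes tested.

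**Figure D2:**
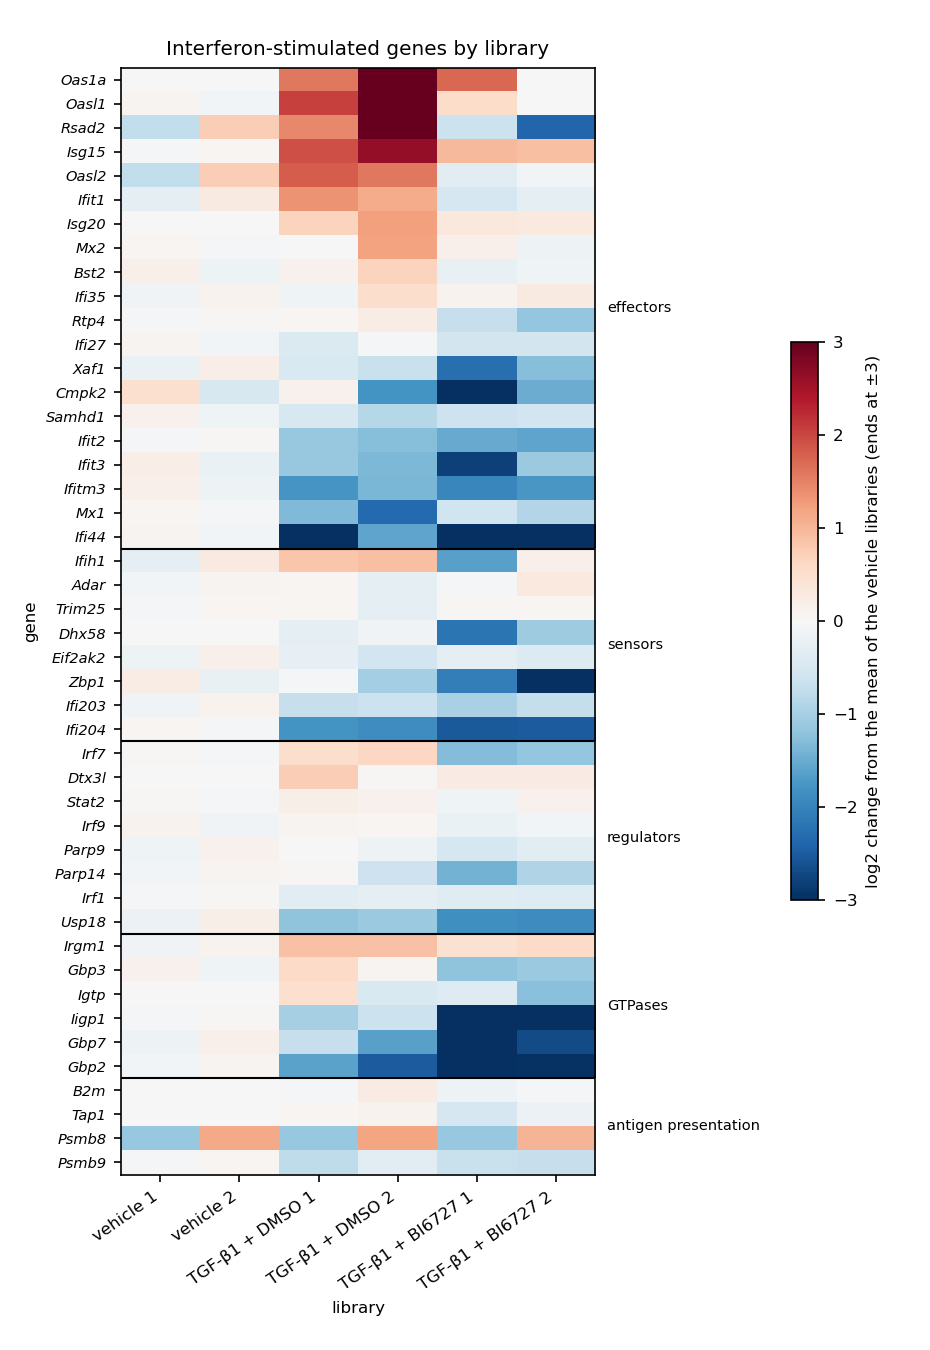
Log2 change of each of the 46 tested genes (rows, grouped by role and ordered by their change with TGF-β1 and DMSO) from the mean of the vehicle libraries, in each of the 6 libraries (columns); red is higher, blue lower, and the scale ends at ±3. The DMSO columns hold both red and blue blocks, whereas the BI6727 columns are mostly blue, with a median over the genes of -0.608 and -0.56, against 0.011 and -0.135 in the DMSO libraries.

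Isg15 encodes a ubiquitin-like protein that is attached to other proteins in the antiviral state. It had 6.95 and 7.47 normalized CPM with vehicle, 27.5 and 44.9 with TGF-β1 and DMSO, and 14.1 and 13.6 with BI6727. Both DMSO libraries were the highest, though far from each other, and the BI6727 libraries lay between them and vehicle. The log2 fold change between DMSO and vehicle was 2.33 (standard error 0.23, adjusted p = 0.000135), and it was 2.18 after correction for gene length, which bears on a transcript of 756 bases. Of its 50-base windows, 3.96% occur in another gene.

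Ifit1, whose protein binds viral RNA that lacks the host cap, had 14.3 and 20.7 normalized CPM with vehicle, 44.1 and 37.4 with DMSO, and 12.1 and 14.3 with BI6727. Its log2 fold change with TGF-β1 and DMSO was 1.22 (standard error 0.19, adjusted p = 0.00233), and its call was lost in 5 of 16 alternatives. Oasl1, an oligoadenylate synthetase-like protein that restrains the translation of Irf7, rose from 6 counts in each vehicle library to 28 and 58 counts in the DMSO libraries, and had 8 and 7 counts with BI6727. On the scale of normalized CPM this was 0.302 and 0.268, then 1.33 and 2.74, then 0.440 and 0.286. DMSO and vehicle differed by a log2 fold change of 2.81 (standard error 0.58, adjusted p = 0.00975). The call of Oasl1 was lost in 8 of 15 alternatives, among them the replicate block (adjusted p = 0.015).

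Oasl2, Isg20 and Irgm1 rose at an adjusted p-value below 0.05. Oasl2, a relative of Oasl1, had 0.604 and 1.74 normalized CPM with vehicle, 3.76 and 3.16 with DMSO and 0.824 and 0.980 with BI6727 (log2 fold change with TGF-β1 and DMSO 1.54, adjusted p = 0.0431). Isg20, an exonuclease of RNA, had 8.21 and 7.96, then 13.0 and 18.9, then 10.0 and 9.84 normalized CPM (0.98, adjusted p = 0.0102). Irgm1, a GTPase that controls other members of its family and autophagy, had 17.9 and 20.4, then 35 and 35.3, then 26.3 and 28.6 normalized CPM. Its DMSO libraries lay almost on one another, with a log2 fold change of 0.87 (standard error 0.14, adjusted p = 0.00232). All 3 had both DMSO libraries above the other 4. The log2 fold change of Oasl2 was 0.982 without vehicle replicate 1 and 2.502 without vehicle replicate 2, and its call was lost in 4 of 15 alternatives (adjusted p up to 0.224). Rsad2, named after its values were seen, encodes viperin, which makes a chain-ending nucleotide. It had 2 and 8 counts with vehicle, 13 and 44 with DMSO and 2 and 0 with BI6727, with a log2 fold change of 2.5 between DMSO and vehicle (adjusted p = 0.0954).

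Among the genes that fell with TGF-β1 and DMSO, Ifi204 had the smallest adjusted p-value. It encodes a DNA sensor of the PYHIN family (mm10 chromosome 1, 173747293 to 173766943) and had 56.9 and 53.1 normalized CPM with vehicle, 15.8 and 15.1 with DMSO and 9.56 and 9.76 with BI6727. Between DMSO and vehicle it differed by a log2 fold change of -1.83 (standard error 0.14, adjusted p = 2.25e-05). Of its 50-base windows, 20.017% occur in relatives such as Mndal, so the value may include their reads. Its neighbour Ifi203, of the same family, fell less, from 22.9 and 26.6 normalized CPM with vehicle to 15.1 and 15.9 with DMSO, and had 12.5 and 15.0 with BI6727 (log2 fold change with TGF-β1 and DMSO -0.68, adjusted p = 0.0190, with 12.355% of its windows shared).

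Ifitm3, a membrane protein that hinders the entry of viruses into cells, had 273 and 221 normalized CPM with vehicle, 72.2 and 95.1 with DMSO and 63.4 and 73.7 with BI6727. Ranked second by level among the genes, it showed a log2 fold change of -1.56 (standard error 0.16, adjusted p = 0.000198), and 10.016% of its windows occur in Ifitm1 and other relatives. Ifit2, a relative of Ifit1 linked to cell death, had 74.4 and 78.7, then 34.7 and 31.7, then 26.6 and 25.4 normalized CPM, with a log2 fold change of -1.21 (standard error 0.12, adjusted p = 0.000159). Gbp2, a guanylate-binding protein that attacks the membranes of intracellular pathogens, had 12.9 and 14.7, then 4.48 and 2.41, then 1.10 and 1.72 normalized CPM, a log2 fold change of -2.00 (standard error 0.30, adjusted p = 0.00155). Samhd1, an enzyme that breaks down deoxynucleotides, had 67.6 and 57.1, then 44.6 and 34.2, then 40.3 and 42.0 normalized CPM (log2 fold change -0.66, adjusted p = 0.0174). For each of these 4 genes all treated libraries lay below both vehicle libraries.

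Ifit1 and Ifit2, which lie near each other, moved in opposite directions with TGF-β1 and DMSO. Other neighbours moved together, as Oasl1 and Oasl2 both rose and Ifi203 and Ifi204 both fell. Ifit2 (mm10 chromosome 19, 34550694 to 34576419) fell and Ifit1 (34640871 to 34650009) rose, and both lie on the plus strand with Ifit3 between them. Ifit3 had 3.42 and 2.59 normalized CPM with vehicle, 1.33 and 1.13 with DMSO and 0.385 and 1.35 with BI6727, and as 51.238% of its windows also occur in Ifit3b its value is uncertain. Of Ifit1, 7.135% of the windows are shared with Ifit1bl1 and Ifit1bl2, whereas 0% of those of Ifit2 occur elsewhere.

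Leaving out 1 library at a time changed the number of rising genes more than that of falling ones. The 3 rising genes became 0 without vehicle replicate 1, 1 without vehicle replicate 2, 5 without DMSO replicate 1, 2 without DMSO replicate 2 and 1 without either of the BI6727 libraries, and the 4 falling genes became 2 without vehicle replicate 1 and 3 without vehicle replicate 2. The log2 fold change of Isg15 lay between 1.95 and 2.63 in these fits, with its largest adjusted p-value, 0.0128, without vehicle replicate 1. That of Ifit1 lay between 0.98 and 1.51. The median of the genes was 0.026 without DMSO replicate 2 and -0.178 without DMSO replicate 1.

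**Figure D3:**
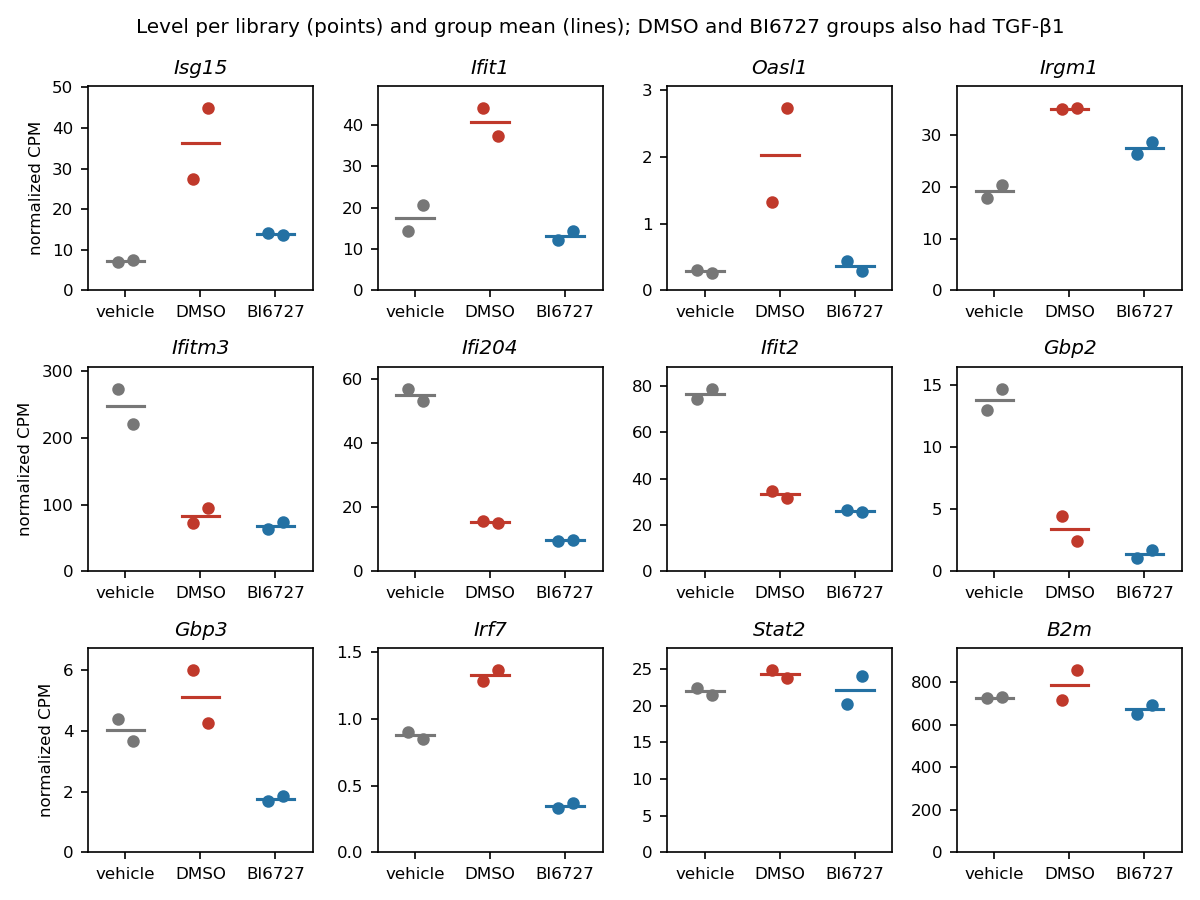
Normalized CPM (vertical axes, each from 0) of 12 interferon-stimulated genes in the vehicle group and in the groups given TGF-β1 with DMSO or with BI6727; points are the 2 libraries of a group and lines their mean. Isg15, Ifit1, Oasl1 and Irgm1 peak in the DMSO group, Ifitm3, Ifi204, Ifit2 and Gbp2 are highest with vehicle, Gbp3 and Irf7 are lowest with BI6727, and Stat2 and B2m differ little (Stat2 ranges from 20.2 to 24.9).

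With BI6727 added to TGF-β1, interferon-stimulated genes were mostly lower than with DMSO, but none passed the threshold. The fitted level was lower in 41 of 46 genes and higher in 5, whereas 50.6% of all genes tested were lower. The 41 include genes whose log2 fold change lay within its standard error. Examples are Psmb8 (-0.09, standard error 1.87), Ifi35 (-0.03, standard error 0.23) and Irf1 (-0.07, standard error 0.13). By the threshold used above, edgeR's test called 0 of 46 lower, against 0.0112% of all genes, and 0 higher, against 0%. The counts were the same at an adjusted p-value below 0.05 with no fold minimum (0.0112% of all genes lower and 0% higher). Before adjustment, a p-value below 0.05 was reached by 21 genes that were lower (4.2% of all genes) and by 0 that were higher (2.36%). Both BI6727 libraries lay below both DMSO libraries in 29 genes, where 17.4% of all genes did. The median log2 fold change was -0.68, or -0.64 with genes at 0 in a group set to their bound, against -0.003 over all genes tested.

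The 2 genes called lower among all genes were Ccl5 and Pde1b. Ccl5, an interferon-inducible chemokine that is no member of the list, had 2.87 and 4.03 normalized CPM with vehicle, 12.2 and 12.5 with DMSO and 1.76 and 1.06 with BI6727, a log2 fold change between BI6727 and DMSO of -3.16 (standard error 0.29, adjusted p = 0.00888). Pde1b, a phosphodiesterase of cyclic nucleotides, had a log2 fold change of -1.60.

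Ifit1 had the smallest adjusted p-value of the 46 genes. Its level with BI6727 was near that with vehicle, 12.1 and 14.3 against 14.3 and 20.7 normalized CPM, and its log2 fold change from DMSO was -1.63 (standard error 0.20, adjusted p = 0.0526). Over the alternatives its log2 fold change lay between -1.76 and -1.50 and its adjusted p-value between 7.76e-16 and 1. Isg15 followed, with -1.39 (standard error 0.22, adjusted p = 0.125), between -1.70 and -1.02 over the alternatives (adjusted p from 1.1e-10 to 1). Both genes passed the threshold with DESeq2 and also after correction for gene length.

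The other effectors that had risen with TGF-β1 and DMSO, and Rsad2, which had not passed that test, also had lower values with BI6727. The log2 fold change from DMSO was -2.5 for Oasl1, -1.92 for Oasl2, -0.68 for Isg20 and -4.65 for Rsad2, with adjusted p-values of 0.490, 0.515, 0.598 and 0.552. The value of Rsad2 rests on 2 and 0 counts with BI6727 and lay between -7.883, without BI6727 replicate 1, and -3.543, without DMSO replicate 2. In all 4 the BI6727 libraries lay below both DMSO libraries, which are the same libraries against which the rise was measured, so the rise and the fall are not independent. Effectors that had not risen were lower as well. Rtp4, a chaperone of receptors that also hinders viral replication, had 6.09 and 6.44 normalized CPM with vehicle, 6.48 and 7.27 with DMSO and 3.85 and 2.78 with BI6727 (log2 fold change from DMSO -1.06, adjusted p = 0.469, with 11.634% of its windows shared with an overlapping gene). Xaf1, a promoter of apoptosis, had 4.28 and 5.72, then 3.57 and 3.12, then 0.989 and 2.00 normalized CPM (-1.13, adjusted p = 0.625). Among the 20 effectors tested, 18 were lower, with a median log2 fold change of -1.01. The exceptions were Samhd1, at 0.06, and Mx1, which had 1 and 0 counts with DMSO and 2 in each BI6727 library.

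The GTPases were the role with the lowest median. All 6 were lower with BI6727 than with DMSO, with a median log2 fold change of -1.39, and 5 of them at an unadjusted p-value below 0.05. Gbp3 had 4.38 and 3.67 normalized CPM with vehicle, 6 and 4.25 with DMSO and 1.70 and 1.84 with BI6727. Its log2 fold change from DMSO was -1.53 (standard error 0.28, adjusted p = 0.289), the third smallest adjusted p-value among the genes. Gbp7 had 51 and 72 counts with vehicle, 37 and 19 with DMSO and 4 and 10 with BI6727, or 2.57 and 3.22, 1.76 and 0.897, and 0.220 and 0.408 normalized CPM (log2 fold change from DMSO -2.02, adjusted p = 0.559, with 12.738% of its windows shared). Gbp2 differed from DMSO by -1.26 (adjusted p = 0.583). These 3 genes lie together on mm10 chromosome 3, from 142530342 to 142638008. Iigp1, an immunity-related GTPase, had 12 and 14 counts with vehicle, 6 and 8 with DMSO and 0 in both BI6727 libraries, so with a floor of 3 counts per library it was at least 2.31-fold lower with BI6727 than with DMSO. Igtp had 2.87 and 2.95, then 4.14 and 2.12, then 2.20 and 1.18 normalized CPM, and its groups overlapped. Irgm1 was lower by the least, at -0.35 on the log2 scale (adjusted p = 0.734).

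Of the sensors, 5 of 8 were lower and the median was -0.42. Zbp1, a sensor of Z-form nucleic acid that triggers necroptosis, had 41 and 34 counts with vehicle, 36 and 18 with DMSO and 7 and 4 with BI6727. On the normalized CPM scale this was 2.06 and 1.52, 1.71 and 0.850, and 0.385 and 0.163, a log2 fold change from DMSO of -2.26 (adjusted p = 0.568). Dhx58, a helicase that tunes RNA sensing by its relatives, had 2.47 and 2.42, then 2.00 and 2.27, then 0.495 and 1.14 normalized CPM (-1.33, adjusted p = 0.625). Ifi204 was also lower with BI6727 than with DMSO (-0.68, standard error 0.14, adjusted p = 0.363), and Ifi203 by less (-0.17, standard error 0.16). The other 3 genes of this group were not lower. Trim25, a ubiquitin ligase of RIG-I, had 53.9 and 58.8, then 58.3 and 45.6, then 57.6 and 58.9 normalized CPM. Eif2ak2, the kinase PKR, had 44.7 and 55.5, then 41.9 and 33.2, then 40.9 and 37.7, and the log2 fold changes from DMSO of Trim25, Eif2ak2 and the RNA-editing enzyme Adar were 0.17, 0.06 and 0.23 (standard errors 0.14, 0.16 and 0.18).

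All 8 regulators were lower with BI6727, most of them by little, with a median of -0.28. Irf7, the factor that amplifies type I interferon, was named after its values were seen. It had 0.906 and 0.850 normalized CPM with vehicle, 1.29 and 1.37 with DMSO and 0.330 and 0.368 with BI6727, a log2 fold change from DMSO of -1.90 (adjusted p = 0.559). Parp14, an ADP-ribosyltransferase, had 3.68 and 4.07, then 3.95 and 2.5, then 1.43 and 2.04 normalized CPM (-0.88, adjusted p = 0.725). Usp18, the protease that removes ISG15 and damps the receptor, had 1.31 and 1.70, then 0.619 and 0.661, then 0.385 and 0.368 normalized CPM (-0.76, adjusted p = 0.859). Parp9, which acts with Dtx3l, had 17.7 and 20.9, then 19.5 and 17.2, then 13.3 and 15.4 normalized CPM (-0.35). Both of the following subunits of the factor that binds the response element stayed within a narrow range. Stat2 had 22.5 and 21.4, then 24.9 and 23.8, then 20.2 and 24.0 normalized CPM, and Irf9 had between 8.19 and 10.1 in all 6 libraries. Irf1 had 30.5 and 31.9 with vehicle, 25.2 and 25.3 with DMSO and 24.4 and 23.8 with BI6727.

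In antigen presentation, the 4 genes were lower by a median of -0.19 on the log2 scale. Psmb8, among them, had 0 and 4 counts in each of the groups. B2m had 727 and 728 normalized CPM with vehicle, 714 and 857 with DMSO and 652 and 693 with BI6727 (log2 fold change from DMSO -0.22, standard error 0.12, adjusted p = 0.777). Tap1, a subunit of the peptide transporter, had 20.9 and 21.3, then 21.9 and 22.7, then 14.9 and 18.6 normalized CPM (-0.41, adjusted p = 0.725). Psmb9, a subunit of the immunoproteasome, had 4.08 and 4.38, then 2.48 and 3.40, then 2.64 and 2.61 normalized CPM (-0.16, standard error 0.27).

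**Figure D4:**
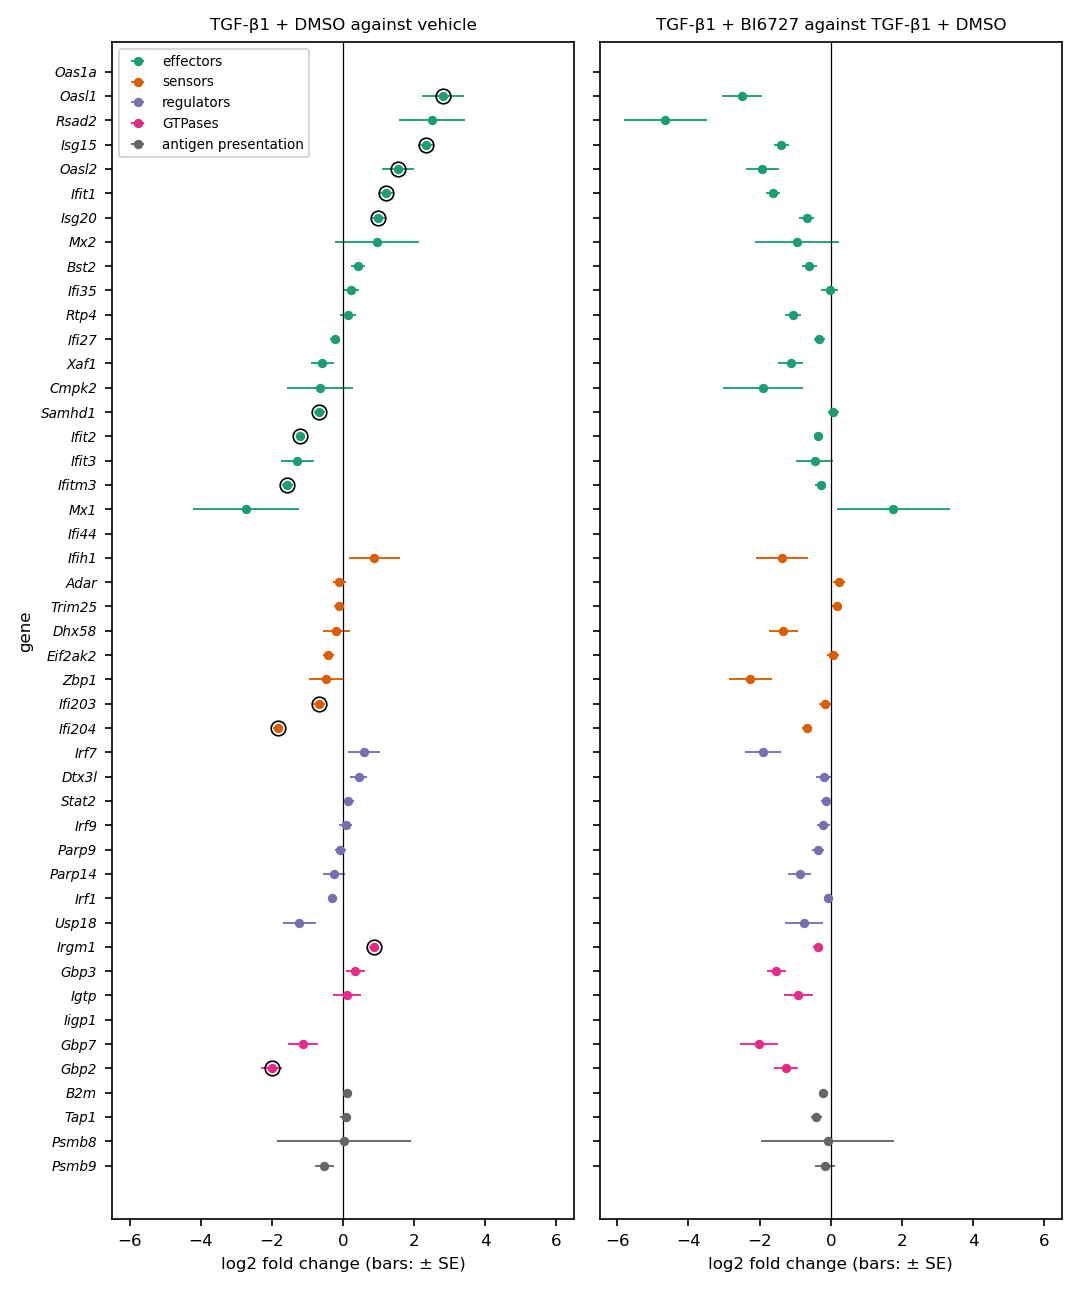
Log2 fold change (horizontal axes, bars ± standard error from the fit of all 6 libraries) of the tested genes between TGF-β1 with DMSO and vehicle (left) and between the BI6727 and DMSO groups (right), coloured by role; black rings mark genes at an adjusted p-value below 0.05. Oas1a, Ifi44 and Iigp1, at 0 counts in a whole group, are listed without a point. On the left the genes spread to both sides of 0 with 12 rings, and on the right most lie left of 0 with 0 rings.

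The calls between BI6727 and DMSO depended on whether both DMSO libraries were used, whereas the direction depended on this less. The 0 genes called lower became 5 without DMSO replicate 1 and 4 without DMSO replicate 2, 2 with DESeq2 and 2 after correction for gene length. Without a DMSO library, the spread was estimated from the vehicle and BI6727 groups alone, and the remaining DMSO library was assumed to vary like them, although the DMSO libraries differed more than theirs. The number with a lower fitted level was 39 without either DMSO replicate and 37 to 41 without any of the other libraries. The number lower at an unadjusted p-value below 0.05 ranged from 15, without BI6727 replicate 1, to 24, without DMSO replicate 2. The number higher at that p-value was 0 except without DMSO replicate 1, where it was 3. After that correction, 30 genes had both BI6727 libraries below both DMSO libraries. The list was measured mainly through its less abundant genes here, since with the filter of at least 10 CPM in more than 3 libraries 19 genes remained, 15 of them lower, with a median of -0.29.

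Between BI6727 and DMSO, the median of the genes with the response element in their promoter was lower than that of genes without it. The median log2 fold change between BI6727 and DMSO was -0.91 over 17 tested genes with the element, 16 of them lower, and -0.28 over 18 genes with a promoter without it, 15 of them lower. Between DMSO and vehicle these medians were 0.15 and -0.04. Between BI6727 and vehicle they lay closer together, at -0.50 with the element (13 of 17 lower) and -0.35 without it (12 of 18 lower). With 1 base of the element allowed to differ, 86.111% of the promoters matched, against 38.883% of all promoters, so the looser reading separates the genes less. These are descriptions of the genes and no test was made of the difference. All 5 GTPases with a promoter held the element, and the GTPases had the lowest median of the roles (-1.39). The split by element is therefore partly a split by role. Oas1a and Rsad2, which also held the element, each had 2 and 0 counts with BI6727.

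Compared with vehicle, TGF-β1 with BI6727 left 36 genes lower and 10 higher, with a median log2 fold change of -0.58 (0.013 over all genes). Ifi204, Gbp7, Gbp2, Ifitm3, Xaf1 and Ifit2 fell past the threshold (6 of 46, against 3.13% of all genes) and 0 rose (2.05%). At an adjusted p-value below 0.05 with no fold minimum, 17 were lower (9.43%) and 2, Isg15 and Irgm1, were higher (7.69%). Both BI6727 libraries lay below both vehicle libraries in 29 genes, where 32.4% of all genes did. This comparison shares its BI6727 libraries with the comparison above and its vehicle libraries with the first.

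The largest of these falls was in Gbp2, with a log2 fold change of -3.26 (standard error 0.33, adjusted p = 0.000128), next to -3.14 for Gbp7 (standard error 0.51, adjusted p = 0.00238) and -2.51 for Ifi204 (standard error 0.14, adjusted p = 4.27e-06). Iigp1 was at least 4.28-fold lower than with vehicle on the floor of 3 counts per library. Ifitm3 had -1.85, Xaf1 -1.71 and Ifit2 -1.56. Besides these 6 and Iigp1, the genes lower at an adjusted p-value below 0.05 were Zbp1 (-2.74), Usp18 (-1.99), Ifit3 (-1.73), Dhx58 (-1.53), Gbp3 (-1.18), Parp14 (-1.14), Rtp4 (-0.93), Ifi203 (-0.84), Samhd1 (-0.60) and Ifi27 (-0.55). The calls of Ifi204, Gbp2, Ifitm3 and Ifit2 were kept in all alternatives. Parp14 lost its call in 6 of 15 and Xaf1 in 5 of 15. Gbp7, Iigp1, Zbp1, Usp18, Gbp3 and Rtp4 lost theirs in 4 of 15 each, and Ifit3 and Dhx58 in 3 of 15. For Samhd1 and Ifi27 this happened in 4 of 16, and for Ifi203 in 2 of 16. Ifi27, a membrane protein of mitochondria and the nuclear envelope, had 57.9 and 50.9 normalized CPM with vehicle, 40.5 and 52.2 with DMSO and 37.1 and 36.9 with BI6727. Isg15 remained higher than with vehicle, by 0.94 (standard error 0.23, adjusted p = 0.0216), and Irgm1 by 0.52 (adjusted p = 0.0305). Both of these calls were lost in 4 of 16 alternatives. Without DMSO replicate 1, and likewise without DMSO replicate 2, 13 genes were called lower, and 4 were without any 1 of the other 4 libraries. The DMSO libraries enter this comparison only through the estimate of the spread, which all groups share, the scaling and the choice of genes tested.

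Read across the 3 groups, 20 of the 46 genes had both BI6727 libraries below the other 4 libraries, where 8.7% of all genes tested did. They comprised 4 of 6 GTPases (Gbp2, Gbp3, Gbp7 and Iigp1), 5 of 8 regulators (Irf1, Irf7, Usp18, Parp9 and Parp14), 4 of 8 sensors (Dhx58, Zbp1, Ifi203 and Ifi204), 5 of 20 effectors (Ifit1, Ifit2, Ifi27, Xaf1 and Rtp4), and Tap1 and B2m. Ifit1 is among the 20 only narrowly, with 14.257 normalized CPM in BI6727 replicate 2 against 14.299 in vehicle replicate 1. Both DMSO libraries lay above the other 4 in 11 genes, where 7.55% of all genes did. These were Ifit1, Isg15, Isg20, Oasl1, Oasl2, Rsad2, Rtp4, Ifih1, Irf7, Irgm1 and Tap1. In a bulk culture, fewer cells that express a gene and less of its RNA per cell cannot be told apart.

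At an adjusted p-value below 0.05, 6 of 10 tested genes that carry or restrain the interferon signal fell with TGF-β1 and DMSO. Over all genes tested 8.41% fell, and 0 of the 10 rose, where 7.64% of all genes did. The kinases Jak1 and Tyk2 did not pass, with log2 fold changes of -0.48 and -0.02 (adjusted p = 0.0521 and 0.945). Ifnar2, a subunit of the type I receptor, had 27.1 and 25.0 normalized CPM with vehicle, 14.3 and 13.5 with DMSO and 13.7 and 14.0 with BI6727, a log2 fold change of -0.91 with TGF-β1 and DMSO (standard error 0.14, adjusted p = 0.00236). The other subunit, Ifnar1, fell less (-0.47, adjusted p = 0.0363), and Ifngr1 and Ifngr2, of the receptor for interferon gamma, had 0.02 and 0.32 (adjusted p = 0.940 and 0.0869). Socs3, a feedback inhibitor of JAK kinases, had 79.2 and 65.7, then 31.5 and 26.2, then 27.6 and 28.7 normalized CPM (-1.33, adjusted p = 0.000265), and for Socs1, a further inhibitor, and the kinase Jak2 the log2 fold changes were -0.73 and -0.48 (adjusted p = 0.00825 and 0.0467). The calls of Jak2 and Ifnar1 were lost in 8 and 6 of 16 alternatives (adjusted p up to 0.259 and 0.215).

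Upstream of interferon, 2 of 9 tested genes fell with TGF-β1 and DMSO at an adjusted p-value below 0.05, where 8.41% of all genes did, and 0 rose, where 7.64% did. These were the transcription factor Irf2 (-0.88, adjusted p = 0.00993) and the kinase Ikbke (-0.57, adjusted p = 0.0451), and the call of Ikbke was lost in 11 of 16 alternatives (adjusted p up to 0.275). Between BI6727 and DMSO their median was 0.07, and the DNA sensor Cgas and its adaptor Tmem173 (STING) had log2 fold changes of 0.04 and 0.07 (standard error 0.14 for both). Ddx58, the RNA sensor RIG-I, had 17.9 and 19.1, then 16.3 and 13.1, then 11.4 and 10.7 normalized CPM, and differed between BI6727 and vehicle (-0.75, adjusted p = 0.0137). Of 14 further genes of antigen presentation, 1 rose with TGF-β1 and DMSO at an adjusted p-value below 0.05 and 1 fell. Over all genes these shares were 7.64% and 8.41%. The gene that rose was H2-D1, a classical MHC class I heavy chain, from 489 and 486 to 670 and 781 normalized CPM. It had 734 and 715 with BI6727 (log2 fold change from vehicle 0.57 for each treated group, adjusted p = 0.00764 and 0.00750, with 12.775% of its windows shared with relatives). Calr, a chaperone of the endoplasmic reticulum, fell with TGF-β1 and DMSO (-0.35, adjusted p = 0.0467), a call lost in 8 of 16 alternatives (adjusted p up to 0.264). Between BI6727 and vehicle, 2 of the 14 were lower at that p-value (9.43% of all genes) and 1, H2-D1, was higher (7.69%). The lower ones were Tap2, the second subunit of the peptide transporter (-0.54, adjusted p = 0.0340), and H2-T23 (-2.00, adjusted p = 0.00653). H2-T23 had 57 and 60 counts with vehicle and 16 and 13 with BI6727. Of the windows of Tap2 and H2-T23, 11.6% and 14.489% occur in other genes.

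Between BI6727 and DMSO, the chemokines had larger log2 fold changes than the other pathway genes named here. Ccl5, given above, rose with TGF-β1 and DMSO (log2 fold change 1.83, standard error 0.26, adjusted p = 0.00114), and with BI6727 it was below vehicle (-1.32, adjusted p = 0.0150). Cxcl10, which attracts T cells, had 4.08 and 4.70 normalized CPM with vehicle, 6.67 and 6.75 with DMSO and 1.10 and 1.76 with BI6727. Its log2 fold change from DMSO was -2.20 (standard error 0.28, adjusted p = 0.0526) and from vehicle -1.59 (adjusted p = 0.00403). Both genes followed the order of the genes that peaked in the DMSO group. Without 1 library or under another setting, the adjusted p-value of Ccl5 between BI6727 and DMSO ranged from 4.42e-26 to 0.864.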

How the data were processed

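Counts of reads per gene were deposited by the authors without normalization. Per the study's methods, single-end reads were mapped to mm10 with Subjunc and counted on Gencode M20 genes with featureCounts (Subread 1.6.4), and the authors compared groups with DESeq2 1.22.2 in R 3.6.1. The strand setting is not given in the sources used here, so reads of overlapping antisense genes cannot be told apart. Library totals ranged from 18362378 to 24452153 counts. Of 54752 gene identifiers, 54723 matched a symbol.

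Genes with at least 10 counts in total were tested by the quasi-likelihood method of edgeR 4.0.16 in R 4.3.3, with TMM scaling, all 6 libraries in 1 fit (residual degrees of freedom 3) and Benjamini-Hochberg adjustment over 17936 genes. A call needed a fold change above 2 with an adjusted p-value under 0.01, and a second rule used an adjusted p-value below 0.05 with no fold minimum. The standard error was the size of the log2 fold change divided by the square root of F. The smallest p-value of an exact permutation test of 2 libraries against 2 is 0.333, and no such test was run. Replicate counts differed by more than sampling noise in each group (chi-square over degrees of freedom 4.81 in vehicle, 38.4 in DMSO and 4.16 in BI6727 libraries). Shared 50-base windows were counted in Gencode M21 transcripts, and overlaps in the exons of the count table. The test was run on simulated counts with the same spread in all groups. That run cannot check it under the wider spread of the DMSO libraries.

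Alternatives were DESeq2 1.42.0, its size factors, other filters, the replicate number as a block, crossed numbers, a lowess of span 0.3 on gene length, only the groups compared, and each library left out. The members and lists were chosen with earlier results of these data known. Values in every library are given for members at an adjusted p-value below 0.05 in any comparison and for the 3 highest per kilobase of each role. Irf9, Adar, Ddx58, Cgas, Tmem173, Tap2 and genes so marked in the text were picked with their values in view. 1 gene of the pathway list is not reported here.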

Additional observations from a re-analysis of the deposited data

How the results depend on the processing

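Between TGF-β1 with DMSO and vehicle, the 3 genes called higher became 5 with a filter of at least 1 count in total, 1 with only the 2 groups compared and 6 at an adjusted p-value below 0.05 with no fold minimum. Leaving out 1 library gave 0 to 5 higher and 2 to 4 lower, and a median from -0.178 to 0.026, the last without DMSO replicate 2. Between BI6727 and DMSO, the 0 genes called lower became 2 with DESeq2, 8 with at least 1 count in total, 1 with the crossed replicate block, 2 with length offsets and 2 with the replicate block and length offsets, and 0 to 5 without 1 library. The median of -0.68 became -0.293 with at least 10 CPM in more than 3 libraries and lay from -0.722 to -0.496 without 1 library. Between BI6727 and vehicle, the 6 genes called lower became 3 with that filter, 13 with at least 1 count in total, 13 with only the 2 groups compared, 17 at an adjusted p-value below 0.05 with no fold minimum, and 4 to 13 without 1 library, and the 0 called higher became 2 at that p-value. Its median became -0.366 with the 10-CPM filter and lay from -0.765 to -0.571 without 1 library. Allowing 1 base of the response element to differ raised the share of promoters to 86.111%. The stricter filter leaves 19 of the genes; a group left with 1 library adds nothing to the estimate of the spread; otherwise the cause was not tested.

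Same-numbered replicates did not deviate together (r = -0.104 for DMSO with vehicle, -0.229 for BI6727 with DMSO and 0.041 for BI6727 with vehicle), so the numbers were not taken to pair the samples. With the replicate block, 6 genes were called between DMSO and vehicle in place of 7 (without Oasl1), 0 between BI6727 and DMSO, and 7 between BI6727 and vehicle (with Zbp1 added), and crossed numbers gave 7, 1 and 6. The count of genes that were lower between BI6727 and DMSO at a p-value below 0.05 before adjustment, an alternative added after seeing the data, ranged from 7 with the 10-CPM filter to 25. Of the members at an adjusted p-value below 0.05 between DMSO and vehicle, Samhd1 lost the call in 5 of 16 alternatives, Ifi203 in 3 of 16 and Isg20 in 2 of 15. Genes under 1 normalized CPM rest on a few counts per library, which limits what could be detected.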
